A study of Homo sapiens with 4 samples.

Results

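The serous ovarian carcinoma identity genes described here are 10 genes by which pathologists and biologists recognise high-grade serous carcinoma: the transcription factor genes PAX8, WT1, SOX17, MECOM and ESR1, and the genes of secreted or surface proteins WFDC2, MUC16, MSLN, FOLR1 and MUC1. They were taken by gene name alone from the 60605 genes annotated in the files, where all 10 were found. High-grade serous carcinoma is thought to arise mainly from the secretory epithelium of the fallopian tube, a derivative of the Müllerian duct, and it keeps much of the gene expression of that epithelium. PAX8 and SOX17 are transcription factors of the Müllerian lineage, WT1 separates serous from other ovarian carcinomas in diagnostic staining, and the proteins of MUC16 (CA125) and WFDC2 (HE4) are measured in blood as tumour markers. MSLN encodes mesothelin, a surface protein that binds CA125, and FOLR1 encodes the folate receptor alpha, a target of antibody-drug conjugates.

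The study asked how OVCAR3 cells, an established line grown from the malignant ascites of an ovarian adenocarcinoma, respond to DNA damage. RNA was sequenced from 2 samples of cells given DMSO, the vehicle, and from 2 samples given 1.7 µM etoposide, a topoisomerase II poison, for 24 h. Cells of both groups had first been held in 100 ng/mL nocodazole, which blocks mitosis, for 16 h and released from it for 3 h, so that the DMSO cells are not untreated cells. All 4 libraries come from 1 cell line, and their labels call them biological replicates.

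Values are FPKM, fragments counted per kilobase of a transcript and divided by the library's mapped total, summed over the transcripts of each gene, and they can be set side by side between genes because they are per length. The depth implied by the deposited values ran from 47687126 to 66500749 read pairs per library and was greater in DMSO than in etoposide. Between the DMSO libraries, values differed with transcript length and with GC content. Over the 22185 genes tested, the difference of replicate 2 from replicate 1 had a Spearman correlation with length of 0.317. With GC content it was −0.34. Between the etoposide replicates the correlation with length was 0.0173. The difference of etoposide from DMSO had a correlation with length of 0.194. All of these are across genes, which do not replicate each other. Values from libraries corrected for length and GC content are therefore given beside most members.

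No member passed the test between etoposide and DMSO treated cells, and all 9 members that could be tested had a lower mean in etoposide. The highest members, WFDC2 and PAX8, had a mean FPKM in etoposide of 79.6% and 86.0% of that in DMSO, and MUC16 one of 66.6%. WT1 differed least, at 96.4%. ESR1 was listed near 0 in every library and was not tested.

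The test was limma's moderated fit on the log2(FPKM + 0.1) scale, for the 22185 genes that averaged an FPKM of 0.1 or more, and p-values were adjusted by the Benjamini-Hochberg method over these genes. At an adjusted p under 0.05 it called 0 of the 9 members and 0.0% of all genes, the smallest adjusted p of any gene being 0.169. An unadjusted p under 0.05 was reached by 2643 of all genes in either direction. It was reached by 4 of the 9 members (WFDC2, PAX8, MSLN and MUC16), all lower in etoposide, beside 4.85% of all genes in that direction. The 2 etoposide values lay below both DMSO values in 6 of the 9 members, beside 19.0% of all genes. Lower values of any size were seen in 9 of 9 members and in 43.8% of all genes. In the fitted log2 fold changes no member was lower by 1.5-fold, beside 3.06% of all genes, although the ratio of mean FPKM of MUC16 lies at that threshold. The median log2 fold change of the members was −0.19, against 0.036 over all genes tested, and −0.21 once length and GC content were corrected. The members were not drawn independently of each other, so that these shares are descriptions. With 2 libraries against 2, the smallest p of an exact permutation test (two-sided) is 0.333. In bulk RNA, fewer cells expressing a gene and less of its RNA per cell cannot be told apart.

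**Figure D1:**
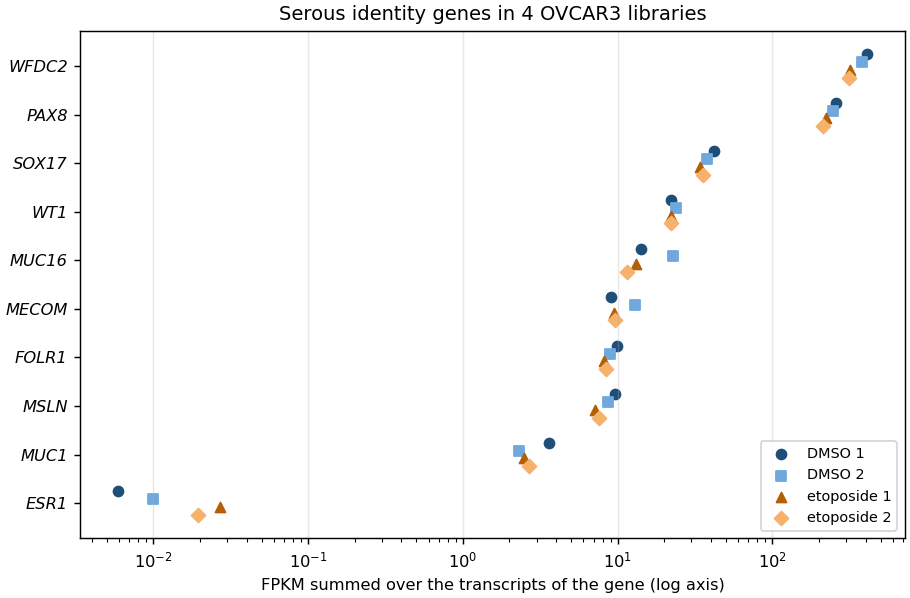
FPKM of the 10 genes (horizontal log axis) in each of the 4 libraries (1 point per library; circles and squares for DMSO, triangles and diamonds for etoposide). Levels run from about 400 for WFDC2 to under 0.03 for ESR1, and the libraries of one gene lie close together beside the distances between most genes.

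In order of level, the members ran WFDC2, PAX8, SOX17, WT1, MUC16, MECOM, FOLR1, MSLN, MUC1 and ESR1. WFDC2 held ranks 109 to 130 among the 19942 protein-coding genes of a library, and PAX8 held ranks 167 to 199. WFDC2 was 1.503 times PAX8 and PAX8 was 6.30 times SOX17 in mean FPKM, with no overlap between the libraries of either pair. WT1 and MUC16 overlapped in DMSO, as did MECOM and FOLR1, and FOLR1 and MSLN, so that the order of these neighbours does not exceed the spread between DMSO libraries. In the etoposide libraries no neighbours overlapped. MUC1 lay at ranks 8635 to 9971, and ESR1 at ranks 15508 to 16376.

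PAX8 is the paired-box transcription factor that marks the Müllerian lineage, and also the thyroid and kidney. Its FPKM was 258 and 248 in DMSO and 222 and 214 in etoposide. Both etoposide values lay below both DMSO values. The mean was 253 ± 7.45 (SD, n = 2) in DMSO and 218 ± 5.45 (SD, n = 2) in etoposide. The log2 fold change was −0.22 (limma, SE 0.069, 95% interval −0.39 to −0.046, unadjusted p = 0.0210, adjusted p = 0.373), and between −0.25 and −0.19 with any 1 library left out. PAX8 spans chr2:113215997-113278921 on the minus strand of GRCh38.

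Among 14 annotated PAX8 transcripts, PAX8-203, which encodes 398 residues, held 58.7% to 62.3% of the gene's FPKM in every library, at 161 and 148 in DMSO and 130 and 129 in etoposide. Transcripts typed as retaining an intron held 24.7% and 26.6% in DMSO and 31.0% and 27.6% in etoposide, shares that did not overlap. Their FPKM, at 63.8 and 65.8 against 68.6 and 59.0, overlapped between the groups. The transcripts typed as coding were together at 195 and 182 FPKM in DMSO and 153 and 155 in etoposide, without overlap. The transcripts PAX8-201 and PAX8-205, both of 450 residues, moved in opposite ways between replicates of a group: PAX8-205 was at 9.84 and 6.34 in DMSO and 0.576 and 10.3 in etoposide, while PAX8-201 was at 3.18 and 10.6 in DMSO and 7.94 and 1.39 in etoposide. Among the smaller ones, PAX8-202 (321 residues) was at 16.6 and 13.1 in DMSO and 10.98 and 11.03 in etoposide. The intron-retaining PAX8-209 (28.5 to 37.7), PAX8-210 (20.4 to 27.1) and PAX8-207 (5.49 to 9.37) overlapped between the groups, and the fragments PAX8-208 and PAX8-206 lay at 1.20 to 1.90. No transcript of any member was called, and 0.0% of 71340 transcripts were, with 4121 at an unadjusted p under 0.05.

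The antisense gene PAX8-AS1 overlaps PAX8 on the opposite strand and shares 1651 exon bases with it. Its FPKM was 17.3 and 18.7 in DMSO and 25.7 and 20.8 in etoposide, higher in both etoposide libraries, with a log2 fold change of 0.36 (limma, SE 0.12, adjusted p = 0.386). PAX8 was 14.9 and 13.3 times PAX8-AS1 in DMSO and 8.61 and 10.3 times in etoposide. The kit was stranded, but StringTie was run without a strand setting, so reads in the shared bases could have gone to either gene.

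The promoter sequences of PAX8 and WFDC2, the most abundant members, are shown because the leading transcript of each begins at or near the RefSeq start site. Each is the 250 bases before that start on GRCh38, read 5′ to 3′ along the gene's own strand, with matches to the CCAAT motif, the TATAAA motif and the GGGCGG motif, on either strand, in capitals. PAX8 (chr2:113278922-113279171, minus strand) holds 2 matches to CCAAT, and WFDC2 (chr20:45469503-45469752, plus strand) holds 1 match to GGGCGG, read there as its reverse complement. The RefSeq table holds 7 of the 10 members, without MSLN, SOX17 and FOLR1. Of its 35116 promoters, 32.0% hold CCAAT, 42.6% hold GGGCGG and 10.7% hold TATAAA. A match is only the presence of these letters.
PAX8: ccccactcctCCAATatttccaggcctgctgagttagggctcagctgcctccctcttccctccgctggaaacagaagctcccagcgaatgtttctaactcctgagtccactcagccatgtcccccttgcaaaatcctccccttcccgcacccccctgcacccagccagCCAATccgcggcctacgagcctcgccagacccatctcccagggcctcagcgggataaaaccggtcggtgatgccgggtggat
WFDC2: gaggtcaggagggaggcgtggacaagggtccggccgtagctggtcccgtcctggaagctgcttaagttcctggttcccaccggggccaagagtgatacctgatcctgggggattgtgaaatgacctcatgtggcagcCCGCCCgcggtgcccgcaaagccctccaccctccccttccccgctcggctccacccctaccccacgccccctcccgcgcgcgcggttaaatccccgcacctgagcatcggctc

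WT1 is a zinc finger transcription factor first found in Wilms tumour, and its nuclear staining is a marker of serous carcinoma. Its FPKM was 22.2 and 23.7 in DMSO and 22.29 and 22.01 in etoposide, so that the groups overlapped. The log2 fold change was −0.05 (limma, 95% interval −0.25 to 0.14, adjusted p = 0.800), and −0.10 to −0.0042 with any 1 library left out. With TPM in place of FPKM it was 0.015.

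WT1 spans chr11:32387775-32435564 on the minus strand and is annotated with 22 transcripts. Its best known splice variants differ in exon 5, of 51 bases, and in 9 bases at the end of a later exon, which add the residues known as KTS to the linker before the last zinc finger. Both sequences are shown because the forms of WT1 differ by them. The first is exon 5 (chr11:32416490-32416540), and the second is the last 30 bases of the later exon (chr11:32391972-32392001) with the alternative bases in capitals, both read on the minus strand.
Exon 5: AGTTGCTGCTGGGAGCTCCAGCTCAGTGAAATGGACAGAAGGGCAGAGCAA
KTS exon end: cccacaccaggactcatacagGTAAAACAA

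Transcripts with the 9 bases took 27.95% and 10.97% of WT1's FPKM in DMSO and 15.7% and 12.7% in etoposide. The high share of DMSO replicate 1 came from WT1-205, at 4.77 FPKM there and at 0.151 to 0.482 in the other libraries, so that the groups overlapped. Transcripts without the 9 bases held 71.2% to 87.7%. The split of a gene's FPKM between its transcripts is StringTie's estimate, for WT1 as for the other members. Among transcripts from the upstream start, those without exon 5 and without the 9 bases (WT1-201, 502 residues) were at 8.31 and 12.7 in DMSO and 11.1 and 12.8 in etoposide. Those with exon 5 and without the 9 bases (WT1-204, 519 residues) were at 6.96 and 7.77 in DMSO and 6.85 and 5.95 in etoposide. The intron-retaining WT1-220 was at 1.02 and 0.899 in DMSO and 1.61 and 1.44 in etoposide. The antisense gene WT1-AS, which shares 47 exon bases with WT1, was at 4.78 and 4.29 in DMSO and 4.17 and 3.98 in etoposide.

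**Figure D2:**
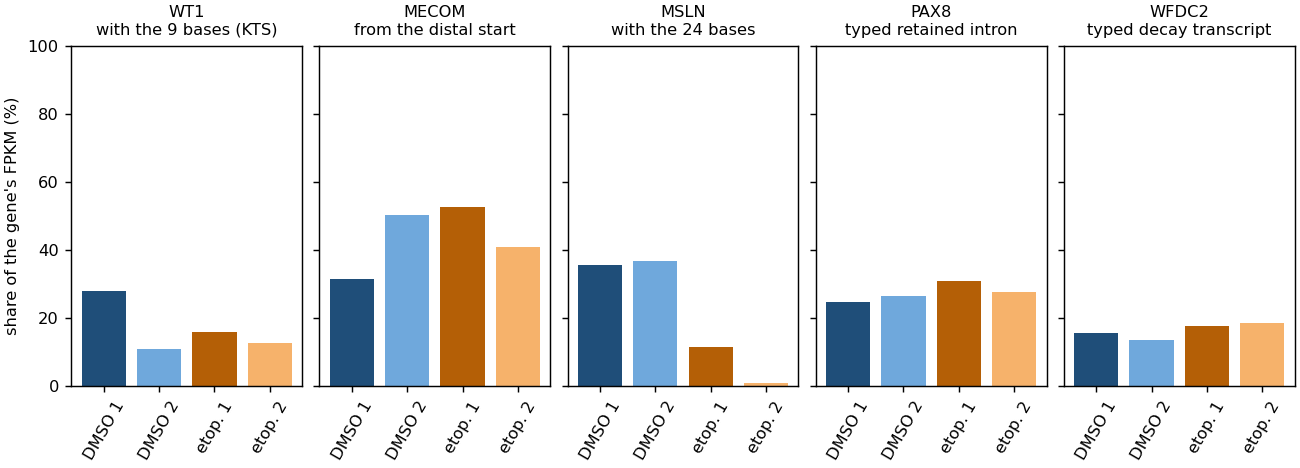
Share of the gene's FPKM (vertical axis, %) held by named forms in each library (1 bar per library): WT1 with the KTS bases, MECOM from the distal start, MSLN with the 24 bases, PAX8 transcripts typed retained intron and the WFDC2 transcript typed for decay. The MSLN share stood at 35.6% and 36.6% in DMSO and at 11.4% and 0.718% in etoposide. The PAX8 and WFDC2 shares did not overlap between the groups either, and were higher in etoposide. Those of WT1 and MECOM overlapped.

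SOX17 is an HMG-box transcription factor of the endoderm, the endothelium and the Müllerian epithelium. Its FPKM was 41.7 and 38.06 in DMSO and 34.0 and 35.8 in etoposide, below DMSO in both etoposide libraries. The log2 fold change was −0.19 (limma, SE 0.083, 95% interval −0.39 to 0.012, adjusted p = 0.428). It was −0.14 with length and GC content corrected, and −0.26 to −0.13 with any 1 library left out. It has 1 annotated transcript, SOX17-201 of 414 residues, and lies at chr8:54457935-54460892 on the plus strand.

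MECOM encodes a zinc finger transcription factor made in a long form with a PR domain (MDS1-EVI1), from a distal start, and in a short form (EVI1), from inner starts. Its FPKM was 9.04 and 12.9 in DMSO and 9.46 and 9.68 in etoposide. The etoposide libraries lay inside the DMSO range, and the log2 fold change was −0.17 (limma, 95% interval −0.59 to 0.25, adjusted p = 0.683). It turned to 0.081 without DMSO replicate 2, so that its direction depended on that library, and was −0.34 with length and GC content corrected (adjusted p = 0.219).

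MECOM spans chr3:169083499-169663775 on the minus strand and has 20 annotated transcripts. The distal start held 31.5% and 50.2% of its FPKM in DMSO and 52.6% and 40.8% in etoposide. Its leading transcript, MECOM-220 (1239 residues), was at 2.74 and 6.41 in DMSO and 4.91 and 3.86 in etoposide. MECOM-206, the leading transcript of the inner starts (1042 residues), was at 5.62 and 5.30 in DMSO and 4.12 and 5.01 in etoposide. The processed pseudogene RPL22P1 lies in an intron of MECOM with no shared exon bases, at 145 to 160 FPKM, and its reads are not part of the MECOM values.

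ESR1 (chr6:151656691-152129619, plus strand) encodes the oestrogen receptor alpha, which many serous carcinomas express. It was listed at 0.00590 and 0.00988 FPKM in DMSO and 0.0268 and 0.0194 in etoposide, values that stand on 2.5 to 7.7 estimated read pairs per library. It was left out of the test by the filter on low values, and no fold is given. Its leading transcript was ESR1-207 (595 residues), at 0 to 0.0148. The level of ESR1 goes against its place among the identity genes of this cell line.

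WFDC2 (HE4), at chr20:45469753-45481532 on the plus strand, encodes a small secreted protein with WAP domains. Its FPKM was 410 and 379 in DMSO and 316 and 312 in etoposide, and the etoposide values lay below both DMSO values. The mean was 394 ± 21.9 (SD, n = 2) in DMSO and 314 ± 2.92 (SD, n = 2) in etoposide. The log2 fold change was −0.33 (limma, SE 0.073, 95% interval −0.51 to −0.15, unadjusted p = 0.00442, adjusted p = 0.298), the smallest p of the members. Corrected for length and GC content it was −0.24. Without DMSO replicate 2 it was −0.38 with an adjusted p of 0.0333 (limma), the only member called under any alternative; the lone DMSO library is then assumed to vary as the other group does.

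The WFDC2 level lay in WFDC2-204 (124 residues), at 324 and 308 in DMSO and 244 and 236 in etoposide, with a log2 fold change of −0.40 (limma, SE 0.064, unadjusted p = 0.00437, adjusted p = 0.518). WFDC2-205, typed for nonsense-mediated decay, was at 63.1 and 51.5 in DMSO and 55.7 and 57.9 in etoposide, with overlapping groups and a log2 fold change of −0.0055. Its share of WFDC2 was 15.4% and 13.6% in DMSO and 17.6% and 18.6% in etoposide. WFDC2-202, WFDC2-203 and WFDC2-206 lay between 1.99 and 10.7 FPKM.

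MUC16 encodes CA125, the large mucin of serous carcinoma and the mesothelium. Its FPKM was 14.2 and 22.7 in DMSO and 13.1 and 11.4 in etoposide. The etoposide libraries lay below both DMSO libraries, but DMSO replicate 1 lay closer to them than to DMSO replicate 2. The log2 fold change was −0.55 (limma, SE 0.22, 95% interval −1.09 to −0.0052, unadjusted p = 0.0485, adjusted p = 0.417). It was −0.79 with length and GC content corrected (adjusted p = 0.0622), −0.89 without DMSO replicate 1 and −0.21 without DMSO replicate 2. MUC16 has the longest transcripts of the members, with a mean length of 41375 bases, and its log2 difference between the DMSO libraries was 0.68, larger in size than that between the groups. It lies on the minus strand at chr19:8848844-8981342, and 1 transcript, MUC16-201 of 14507 residues, held 90.2% to 95.2% of its FPKM.

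**Figure D3:**
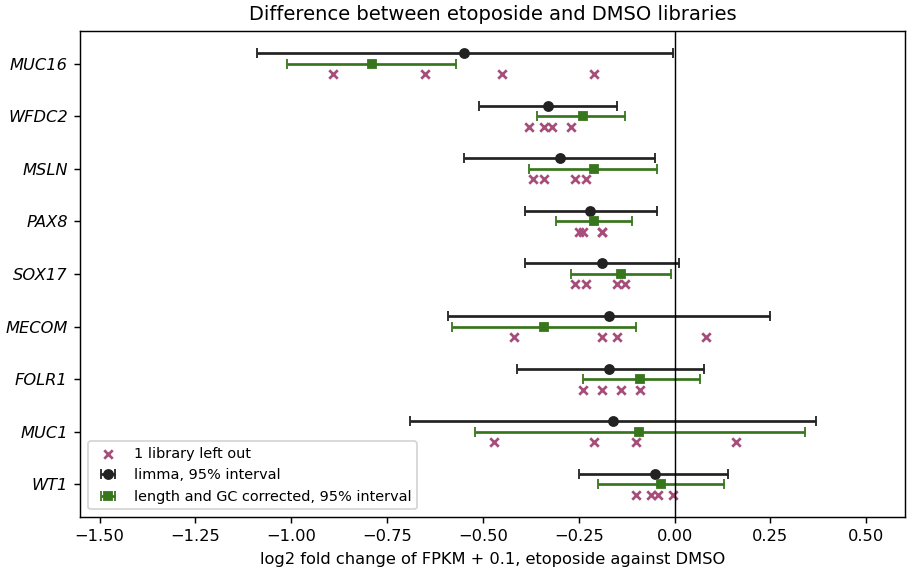
Log2 fold change of etoposide against DMSO (horizontal axis) for the 9 tested members: circles give limma's estimate with its 95% interval, squares the estimate with transcript length and GC content corrected, and crosses the 4 estimates with 1 library left out. MUC16 spreads from −0.89 to −0.21 over the left-out libraries, and MUC1 and MECOM cross 0 there. The intervals and crosses of WFDC2, PAX8, MSLN and MUC16 all stay below 0, and the crosses of SOX17, FOLR1 and WT1 do so too.

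MSLN, mesothelin, was at 9.61 and 8.68 FPKM in DMSO and 7.19 and 7.62 in etoposide, below DMSO in both libraries. Its log2 fold change was −0.30 (limma, SE 0.10, 95% interval −0.55 to −0.052, unadjusted p = 0.0254, adjusted p = 0.386), and −0.21 after the correction. MSLN spans chr16:760734-768865 on the plus strand, and its transcripts differ by 24 bases at the start of an exon. These bases, in capitals, are shown with 6 of the following bases because the forms that hold and lack them differed between libraries.
MSLN exon start: GCTCCTCGGCGGCCCCTCCCACAGgtggcc

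This stretch is chr16:766644-766673 of GRCh38. The transcript with the 24 bases, MSLN-201 (630 residues), was at 3.42 and 3.17 FPKM in DMSO and 0.822 and 0.0547 in etoposide. Its log2 fold change was −3.17 (limma, 95% interval −6.01 to −0.32, unadjusted p = 0.0371, adjusted p = 0.830), and −1.63 with a pseudocount of 1. Transcripts without them (622 residues among those at 1 FPKM or more) were together at 6.08 and 5.44 in DMSO and 6.36 and 7.51 in etoposide. The leading one, MSLN-202, was at 2.26 and 1.60 in DMSO and 3.90 and 4.88 in etoposide. MSLN-207 and MSLN-205 (622 residues each) lay between 0.849 and 2.44. The groups did not overlap for MSLN-201 or MSLN-202, but neither was called. These transcripts share most of their exon bases, and StringTie estimated the split between them.

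FOLR1, the folate receptor alpha (chr11:72189558-72196323, plus strand), was at 9.87 and 8.87 FPKM in DMSO and 8.21 and 8.46 in etoposide. The groups did not overlap, with a log2 fold change of −0.17 (limma, 95% interval −0.41 to 0.076, adjusted p = 0.502). It was −0.24 without DMSO replicate 2, −0.09 without DMSO replicate 1 and −0.089 with length and GC content corrected. FOLR1-202 held 95.4% to 100.0% of the gene. Of the other folate genes, the uptake carrier SLC19A1 was at 7.43 to 8.55 in the 4 libraries. The proton-coupled folate transporter SLC46A1 was at 2.55 and 2.54 in DMSO and 3.24 and 3.50 in etoposide, with a log2 fold change of 0.39 (limma, unadjusted p = 0.0141, adjusted p = 0.347). FOLR2 was listed at 0 in every library. Of 5 folate genes found, 3 were tested and 0 called, with a median log2 fold change of −0.045, which was −0.14 and 0.055 without etoposide replicates 1 and 2.

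MUC1 is a transmembrane mucin of secretory epithelium. Its FPKM was 3.61 and 2.31 in DMSO and 2.49 and 2.68 in etoposide, with the etoposide values inside the DMSO range. The log2 fold change was −0.16 (limma, SE 0.22, adjusted p = 0.777). It was 0.16 without DMSO replicate 1, −0.47 without DMSO replicate 2 and −0.093 with length and GC content corrected. Its leading transcript, of 4170 bases, was at 1.60 and 1.19 in DMSO and 1.37 and 1.53 in etoposide. MUC1 stood on 319 to 536 estimated read pairs per library, and its gene is at chr1:155185824-155192916 on the minus strand.

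Beside the members, 30 genes of the tubal secretory epithelium and of serous carcinoma were listed with the earlier results known, of which 29 were found and 24 tested. None was called. Of the 24 tested, 20 were lower and 4 higher in etoposide, beside 43.8% of all genes lower. At an unadjusted p under 0.05 (limma), 8 were lower, beside 4.85% of all genes, and 1 was higher. VTCN1, the immune checkpoint ligand B7-H4, was at 21.03 and 21.4 FPKM in DMSO and 13.8 and 15.1 in etoposide, a log2 fold change of −0.55 (limma, adjusted p = 0.264). CRABP2, which carries retinoic acid, was at 129 and 119 in DMSO and 88.5 and 85.1 in etoposide, a log2 fold change of −0.51 (limma, adjusted p = 0.258). SLC34A2, a sodium-phosphate transporter, had a log2 fold change of −0.30, and MEIS1, a homeobox partner of HOX proteins, one of −0.33. KLK11 was listed at 0. The median of the list was −0.23, and −0.29 to −0.11 over the alternatives, beside 0.036 over all genes.

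Among 16 mucin genes found, 6 were tested. Only MUC16, MUC15 and MUC1 exceeded a mean FPKM of 1, and MUC21 and MUC22 were listed at 0. MUC3A was at 0.179 and 0.373 in DMSO and 0.138 and 0.0300 in etoposide, and MUC13 at 0.0933 to 0.218. The median log2 fold change of the mucin list, MUC16 and MUC1 included, was −0.12, and −0.22 to −0.049 over the alternatives. Of the WAP genes, 12 were found and 5 tested, with 0 called and a median of 0.059, which turned to −0.087 without etoposide replicate 2 and to −0.21 at a minimum mean FPKM of 1. The protease inhibitor SLPI stood at 299 and 258 in DMSO and 240 and 242 in etoposide, a log2 fold change of −0.21 (limma, adjusted p = 0.431). WFDC3 was at 0.480 to 0.907, and WFDC9 and WFDC10A were listed at 0. The PAX family was carried by PAX8, with PAX6 at 6.001 to 7.04 and PAX9 at 1.70 to 1.97, while PAX1 and PAX4 were listed at 0; of the 3 tested, 0 were called, and their median was −0.058, turning to 0.056 without etoposide replicate 1. Of 12 SOX genes tested, SOX17 included, 0 were called and the median was 0.015, turning to −0.076 without DMSO replicate 1 and to −0.083 with length and GC content corrected. The highest SOX gene of the list was SOX2, with a mean FPKM of 40.7 beside 37.4 for SOX17. SOX2 was at 40.7 and 43.6 in DMSO and 38.9 and 39.5 in etoposide. SOX12 was at 12.6 to 15.4, SOX9 at 3.58 to 4.77 and SOX15 at 0.538 to 0.785.

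Of 20 genes for oestrogen receptors and their known targets, 16 were tested and none was called, with a median log2 fold change of −0.063, and −0.17 without DMSO replicate 2. XBP1, a transcription factor of the unfolded protein response, was at 74.0 and 75.4 in DMSO and 59.5 and 63.8 in etoposide (log2 fold change −0.28). AGR2, a secretory pathway disulfide isomerase, was at 6.63 and 5.75 in DMSO and 4.62 and 4.76 in etoposide (−0.39). MYB was at 0.841 and 0.944 in DMSO and 1.26 and 1.29 in etoposide (0.47), RERG was at 1.12 to 1.48, and TFF1 was listed at 0.

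Among 15 genes tested around MECOM on chromosome 3, MECOM included, 11 were higher and 4 lower in etoposide, beside 43.8% of all genes lower. None was called. The median log2 fold change of the 15 was 0.11, and 0.052 with length and GC content corrected. Over the alternatives it ran from 0.038 to 0.31, the highest without DMSO replicate 2. SKIL, a repressor of SMAD signalling, was at 8.20 and 12.1 in DMSO and 17.9 and 14.9 in etoposide, a log2 fold change of 0.71 (limma, adjusted p = 0.342), and 0.43 to 0.99 with any 1 library left out. CLDN11, a claudin, was at 0.809 and 0.773 in DMSO and 1.36 and 1.43 in etoposide, a log2 fold change of 0.75 (limma, adjusted p = 0.274). EIF5A2, a translation factor, had a log2 fold change of 0.43 and GOLIM4, a Golgi protein, one of 0.32. With length and GC content corrected, the values were 0.53 for SKIL, 0.69 for CLDN11, 0.19 for EIF5A2 and 0.2 for GOLIM4. Over all lists beside the members, 76 genes were tested, of which 0 were called and 16 had an unadjusted p under 0.05 (21.1%, beside 11.9% of all genes).

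The libraries were checked against cell type markers. Of the 8 epithelial genes, all were at a mean FPKM above 1, led by KRT8 at 1266 and 1055 in DMSO and 773 and 821 in etoposide and by KRT18 at 944 and 835 against 611 and 639. The sum of this list was 2887 and 2522 in DMSO and 1937 and 2029 in etoposide, lower in etoposide as the sum of the identity genes was, and its part in their difference was not tested. KRT8 and KRT18 made up most of that sum. Of the 8 genes, 6 were lower and 2 higher, with 0 called. At an unadjusted p under 0.05 (limma), 5 were lower, beside 4.85% of all genes, and 0 higher. The median log2 fold change of the 8 was −0.38, and −0.27 with length and GC content corrected. For the identity genes these medians were −0.19 and −0.21. EPCAM was at 123.8 and 124.5 in DMSO and 126.9 and 133.7 in etoposide, and CDH1 at 31.7 and 36.98 against 33.7 and 34.9. Mesothelial genes summed to 83.2 to 94.5, nearly all from UPK1B, a gene that urothelium also uses, at 80.1 to 91.0. UPK3B was at 1.73 to 2.73 and CALB2, the defining mesothelial marker, at 0.0274 to 0.0764. Leukocyte genes summed to 1.30 to 1.82, with CD14 at 0.612 to 1.02 and MS4A1 at 0. Endothelial genes summed to 4.50 to 5.64, led by KDR and VWF, with EMCN at 0. Intestinal and mucinous genes summed to 0.835 to 1.05, with LGALS4 at 0.183 to 0.425 and TFF1 at 0. Granulosa and sex cord genes summed to 6.43 to 7.98, with FOXL2 at 3.93 to 4.36, AMH at 2.15 to 3.21 and CYP19A1 at 0. Fibroblast genes summed to 7.31 to 8.73, led by COL1A1 at 4.36 and 4.42 in DMSO and 6.11 and 5.80 in etoposide and by COL1A2 at 1.68 to 2.01. Only these 2 of the 8 fibroblast genes exceeded a mean FPKM of 1. Of the 5 tested, 2 were higher and 3 lower in etoposide, with 0 called. Of the 7 ciliated tubal genes tested, 4 were lower and 3 higher in etoposide, with 0 called and a median log2 fold change of −0.18. CAPS was at 12.8 and 10.5 in DMSO and 6.37 and 6.96 in etoposide, and RSPH1 at 3.10 to 3.89. FOXJ1, another gene of that list, was at 0.311 to 0.456. Of the clear cell and endometrioid markers, ANXA4 was at 7.28 to 7.69 and VIM at 0.985 to 1.64.

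**Figure D4:**
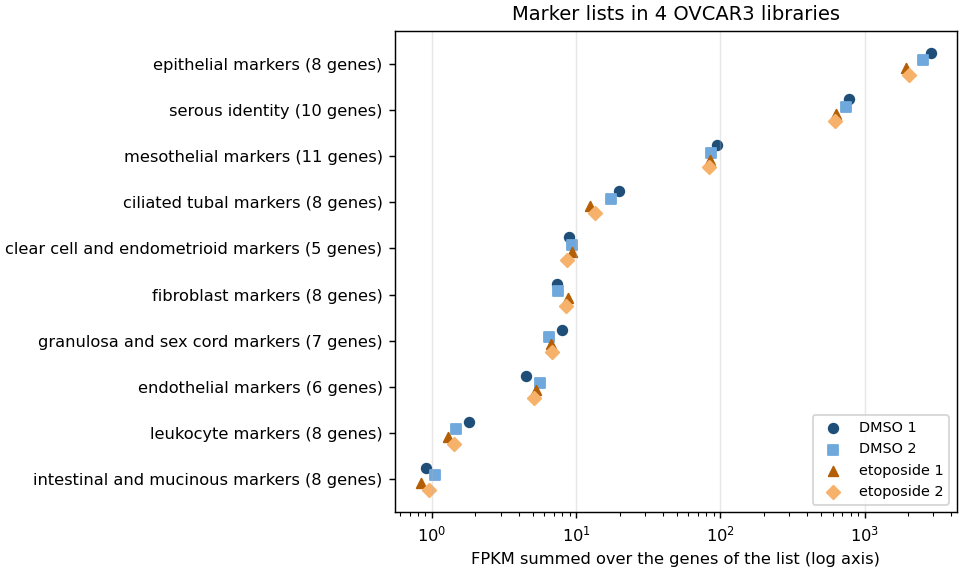
Summed FPKM (horizontal log axis) of the identity genes and of 9 lists of cell type markers in each library (1 point per library), with the number of genes found in each list. Epithelial markers stand highest, at 1937 to 2887, and leukocyte and intestinal markers lowest, at under 2.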

How the data were processed

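RNA from 4 OVCAR3 libraries (2 DMSO, 2 etoposide) was analysed. The authors aligned reads to GRCh38 with HISAT2 and ran StringTie 2.1.7 on the Ensembl 104 annotation. Their deposited files give, per transcript, coverage, FPKM and TPM. The authors' own comparison used DESeq2 on counts that are not used here. It reported differentially expressed genes, some of which they followed by qRT-PCR. The absence of calls in the reported FPKM fit holds for that fit alone. Read pairs were estimated from coverage at 200 bases per pair.

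FPKM were summed per gene. limma 3.58.1 (R 4.3.3, trend, robust) was fitted to log2(FPKM + 0.1) of the 22185 genes and 71340 transcripts that averaged 0.1 FPKM or more, with Benjamini-Hochberg adjustment over each table. The fit was tested on simulated data. Loess with a span of 0.3 corrected for length and GC content. GENCODE gave gene types and protein lengths, and RefSeq the promoters.

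The named genes were all members, their transcripts at a mean FPKM of 1, genes overlapping a member at 0.1, up to 4 genes per context list by unadjusted p, and the highest 2 and zero-valued genes of each marker list. Some marker genes are not reported here. MUC15, EPCAM, CDH1, CALB2, FOXJ1 and SOX2 were named after their values were seen. The members and lists were chosen with earlier results of these data known. The labels call the samples biological replicates. Figures were drawn with matplotlib 3.10.9.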

Additional observations from a re-analysis of the deposited data

How the results depend on the processing

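The 17 alternatives kept the direction of 149 of the 153 log2 fold changes of members computed under them. The exceptions were WT1 with TPM (0.015), a scaling that put the median of all genes at 0.10, MUC1 with voom on estimated fragments (0.012), MUC1 without DMSO replicate 1 (0.16; −0.47 to 0.16 over the libraries left out) and MECOM without DMSO replicate 2 (0.081; −0.42 to 0.081); the cause was not tested. Genes called were 0 in the reported fit, 1 with voom, 6 with the length and GC correction, and 5 to 1934 with 1 library left out (5 and 1934 without DMSO replicates 1 and 2, 98 and 102 without etoposide replicates 1 and 2). With a library left out, members called ranged from 0 to 1 (WFDC2 without DMSO replicate 2, a log2 fold change of −0.38), other listed genes called from 0 to 11, and members past 1.5-fold from 0 to 1. That member was MUC16, past 1.5-fold also with median centring (1 member), quantile normalization (1), and the length and GC correction without (1) or with (1) the replicate block. The median of the members ran from −0.26 to −0.12 over the alternatives.

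The replicate numbers were not found to pair the libraries: same-numbered libraries deviated from their group means with a correlation of 0.0133 over 22185 genes. With the replicate block, 0 genes and 0 members were called. The correction together with the block was chosen after seeing the data. Transcripts called were 0 under each alternative run for them. ESR1 stood on the fewest estimated read pairs of the members, 2.5 to 7.7 per library.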

Other observations

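The genes SYNE1 and ESR1 overlap on opposite strands without shared exon bases, and SYNE1 was at 0.657 and 0.805 FPKM in DMSO and 0.484 and 0.782 in etoposide. EPPIN, a WAP gene of the male reproductive tract, was at 0.123 and 0.0809 in DMSO and 0.183 and 0.178 in etoposide, a log2 fold change of 0.48 (limma, adjusted p = 0.500).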
